A study of Bos taurus with 28 samples.

Results

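CASR, the calcium-sensing receptor (ENSBTAG00000003865), and GPR139, the orphan receptor GPR139 (ENSBTAG00000022535), are 2 of the 27607 genes of the deposited table. Both are genes for G protein-coupled receptors that the study lists as differing between calves on a high (HI) and a moderate (MOD) plane of nutrition. The rows were found by the identifiers which that list pairs with the names. The members were thus chosen by their measured difference between diets, which is described here without a test. Their spread between calves of the same diet and their relations to each other, to prolactin (PRL) and to the dopamine receptor DRD2 do not use it.

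Both receptors sit in the plasma membrane and signal through G proteins, with the Gq family, phospholipase C and a rise of cytosolic calcium as a main route. CASR is the receptor by which parathyroid cells sense extracellular calcium, and its response to calcium is enhanced by aromatic amino acids. GPR139 is found mainly in the brain and pituitary and responds to tryptophan and phenylalanine. In the anterior pituitary prolactin is made by lactotrophs, on which dopamine acts through DRD2 to restrain prolactin release.

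Anterior pituitary tissue came from Angus × Holstein-Friesian heifer calves aged 21 weeks, bought from commercial farms and allocated to the diets within blocks that the labels do not give. The 13 HI calves were started on 10 litres (1.5 kg) of milk replacer a day with free access to concentrate in a calf phase of 8 weeks, then had free access to concentrate and hay for 11 weeks. The 15 MOD calves started on 4 litres (0.5 kg) of milk replacer a day with a concentrate allowance that was raised to 1 kg a day at most, then had 1 kg of concentrate and hay. The groups follow the labels, while the study's text gives equal numbers per diet, and this difference, which bears on every value within a diet, was not resolved. Each calf gave 1 library of mRNA.

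Each library held 12669266 to 18217216 reads on genes, and 1 read was worth between 0.0482 and 0.0830 CPM, where CPM is counts scaled for sequencing depth, that is reads divided by a library size that TMM had adjusted for composition. The pituitary label matched its markers, since PRL was between 32023 and 267896 CPM in every calf and the gonadotroph hormone gene FSHB averaged 707 ± 705 CPM in HI (SD, n = 13) against 1554 ± 810 CPM for the MOD calves (SD, n = 15). Markers of corticotrophs and thyrotrophs were not analysed here. In whole tissue, fewer cells of a type and less RNA per cell cannot be told apart.

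CASR varied widely within each diet. In the HI calves it was lowest at 6.21 CPM (121 reads), had a median of 16.5 CPM and was highest at 86.4 CPM (1110 reads). In the MOD calves the lowest value was 3.03 CPM (52 reads), the median 7.23 CPM and the highest 30.9 CPM (517 reads). The high end of the HI group was made by 4 calves, HI calves 11, 12, 9 and 13, at 42.1, 70.4, 73.4 and 86.4 CPM, and these 4 were the only HI calves above the highest MOD calf. The next HI calf was at 23.1 CPM, so the other 9 HI calves lay within the range of the MOD calves. Of the 15 MOD calves, 4 were below the lowest HI calf. The diets thus overlapped between 6.21 and 30.9 CPM, with MOD calves alone below and HI calves alone above. For orientation, 0.837% of the 14939 genes tested were called by limma (adjusted p below 0.05 and fold change above 1.5), 0.408% higher and 0.428% lower in HI, from which nothing is read about genes chosen by this difference. CASR averaged 30.4 ± 28.0 CPM in HI (SD, n = 13) against 10.0 ± 7.49 CPM for the MOD calves (SD, n = 15), which is a log2 difference of 1.33 ± 0.38 (SE) on the log2(CPM + 0.5) scale, which was between 1.16 and 1.47 with each calf left out in turn.

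GPR139 had few reads, and its higher HI values were spread over more calves than those of CASR. In the HI calves it was lowest at 1.03 CPM (16 reads), had a median of 3.18 CPM and was highest at 5.02 CPM (75 reads). In the MOD calves the median was 1.38 CPM and the highest value 1.80 CPM (32 reads), and 1 calf, MOD calf 15, had 0 reads, which allows a level of up to 0.210 CPM when 3 reads are taken as the limit. Of the 13 HI calves 9 were above every MOD calf, and the other 4, HI calves 1, 13, 5 and 2, were between 1.03 and 1.30 CPM. Of the 15 MOD calves 7 were below every HI calf. GPR139 averaged 2.94 ± 1.53 CPM in HI (SD, n = 13) against 1.12 ± 0.604 CPM for the MOD calves (SD, n = 15), which is a log2 difference of 1.06 ± 0.25 (SE). This value depended on the pseudocount and the fit, and it was 0.62 with a pseudocount of 2 and 1.39 in the edgeR fit on recovered reads.

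**Figure D1:**
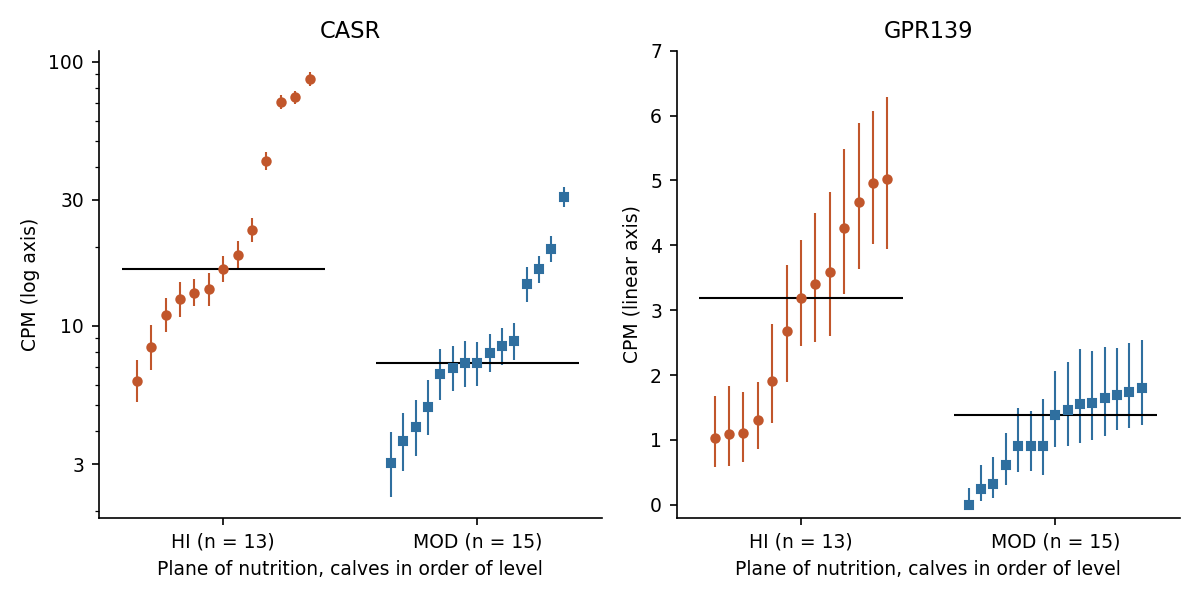
CASR (left, log axis) and GPR139 (right, linear axis) in CPM in each calf, ordered by level within the HI (circles, n = 13) and MOD (squares, n = 15) groups. Bars are exact 95% Poisson intervals of the reads and cover counting error only, and horizontal lines are group medians. The bar of MOD calf 15, with 0 reads, reaches 0.258 CPM, the exact limit in place of the limit of 3 reads. CASR reaches 86.4 CPM in HI through 4 calves, and 9 of 13 HI calves lie above every MOD calf for GPR139.

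The spread of CASR between calves was large for its level. Its SD within diets on the log2 scale was 1.05, rank 78 of 14939 genes from the widest and rank 7 of the 1494 genes in its class of mean level, of 10 classes. For GPR139 the SD was 0.70, rank 350 of 14939 overall and rank 81 of 1494 at its level. By the dispersion of edgeR, a measure of spread that allows for counting error, CASR had rank 169 and GPR139 rank 332 of 14939. The spread expected from counting alone was small for CASR, with an SD of 0.09 in HI and 0.13 in MOD against SDs between calves of 1.22 and 0.88. For GPR139 it was larger, with 0.20 in HI and 0.23 in the 14 MOD calves with reads, against SDs of 0.72 in HI and 0.68 in all MOD calves. The MOD SD includes MOD calf 15, whose value at 0 reads is set by the pseudocount, so the 2 MOD values are not of the same calves. The mean absolute deviation of CASR from the diet median was 0.94 in HI and 0.63 in MOD, a difference of 0.31 that did not pass the test (2-sided permutation p = 0.265, adjusted p = 0.529 over the 2 genes). With 1 calf left out the difference ran from 0.19 without HI calf 13 to 0.41 without MOD calf 1. For GPR139 the deviations were 0.60 and 0.52, a difference of 0.08 (2-sided permutation p = 0.678, adjusted p = 0.678). That difference moved with single calves, from 0.0255 without HI calf 1 to 0.181 without MOD calf 15, and was -0.11 with a pseudocount of 0.1 and 0.151 with a pseudocount of 2. It was between 0.0300 and 0.0531 without HI calf 2, 5 or 13 or MOD calf 6, 7 or 8, and between 0.124 and 0.141 without HI calf 3 or 11 or MOD calf 1 or 10.

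No relation of the 2 receptors from calf to calf passed a test. Over all 28 calves Pearson r on log2(CPM + 0.5) was 0.22, a value to which the diet difference of both genes contributes. Within HI r was -0.06 (permutation p = 0.851, adjusted p = 0.851 over 10 relations), with a Spearman rho of -0.07 (permutation p = 0.831, adjusted p = 0.831; n = 13). Among the 4 HI calves highest in CASR, GPR139 was 3.40, 2.68, 4.66 and 1.09 CPM, which spans most of the HI range. Within MOD r was -0.35 (permutation p = 0.199, adjusted p = 0.284), with a Spearman rho of -0.20 (permutation p = 0.485, adjusted p = 0.606; n = 15). The size of the negative r in MOD depended on single calves, while its sign held with any 1 calf left out. MOD calves 1 and 10 were highest in CASR at 30.9 and 19.6 CPM and at 0.239 and 0.317 CPM in GPR139. Without these 2 calves r was 0.08 (permutation p = 0.798). With 1 calf left out it ran from -0.51 without MOD calf 15 (adjusted p = 0.132) to -0.16 without MOD calf 1 (adjusted p = 0.706), by the same permutation test. With the diet means removed r was -0.19 over all 28 calves (permutation p = 0.354, adjusted p = 0.494 over 5 pairs), so a relation was not detectable in either direction. This value was -0.0883 without HI calf 13, -0.0923 without MOD calf 1, -0.284 without HI calf 9 and -0.108 on linear CPM.

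At a given level of the lactotroph genes their relation did not pass either. The partial r of CASR and GPR139 within diets was -0.26 given PRL (permutation p = 0.186, adjusted p = 0.186 over 2) and -0.34 given DRD2 (permutation p = 0.0846, adjusted p = 0.169). The value given DRD2 passed the threshold without MOD calf 15, the calf with 0 reads of GPR139, at a partial r of -0.50 (permutation p = 0.0111, adjusted p = 0.0221).

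CASR was positively related to DRD2, a call that rests on the calves of both diets. In HI r was 0.52 (permutation p = 0.0659, adjusted p = 0.165), with a Spearman rho of 0.57 (permutation p = 0.0466, adjusted p = 0.202; n = 13), and in MOD r was 0.57 (permutation p = 0.0257, adjusted p = 0.137), with a Spearman rho of 0.51 (permutation p = 0.0524, adjusted p = 0.202; n = 15). Neither diet alone passed the adjustment over 10 relations. With the 2 calves farthest from the median CASR level left out, r was 0.37 in HI (permutation p = 0.269) and 0.61 in MOD (permutation p = 0.0262, adjusted p = 0.117). Over all 28 calves with the diet means removed r was 0.54 (permutation p = 0.00624, adjusted p = 0.0312 over 5 pairs), the one combined relation of 5 that passed. It lost the threshold without HI calf 3, 5, 9, 11 or 13 or MOD calf 2, with r between 0.50 and 0.52 and adjusted p between 0.0517 and 0.0776, and on linear CPM (r 0.53, adjusted p = 0.126). The r of the diets differed by -0.05 (HI minus MOD, permutation p = 0.817, adjusted p = 0.817).

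CASR and PRL had positive values of r that did not pass. They were 0.46 in HI (permutation p = 0.115, adjusted p = 0.191; rho 0.29, permutation p = 0.332, adjusted p = 0.554; n = 13) and 0.30 in MOD (permutation p = 0.280, adjusted p = 0.311; rho 0.20, permutation p = 0.485, adjusted p = 0.606; n = 15). Without the 2 calves farthest from the median CASR level r was 0.24 (permutation p = 0.486) and 0.26 (permutation p = 0.398). With 1 calf left out r was between 0.36 and 0.64 in HI and between 0.14 and 0.40 in MOD. The HI calves fell on either side of a gap in PRL between 118463 and 191905 CPM, 36.0% of their range on the log2 scale, and the 4 HI calves highest in CASR were all above it. Within the 6 calves below the gap r was -0.39 (exact permutation p = 0.465) and within the 7 above it r was -0.21 (exact permutation p = 0.619). These values describe the 2 sets only, since a split on PRL narrows its range and leaves few calves. The combined value within diets was 0.40 (permutation p = 0.0505, adjusted p = 0.126), and it passed without HI calf 4 (r 0.50, adjusted p = 0.0351), which had 8.33 CPM of CASR beside 259214 CPM of PRL.

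**Figure D2:**
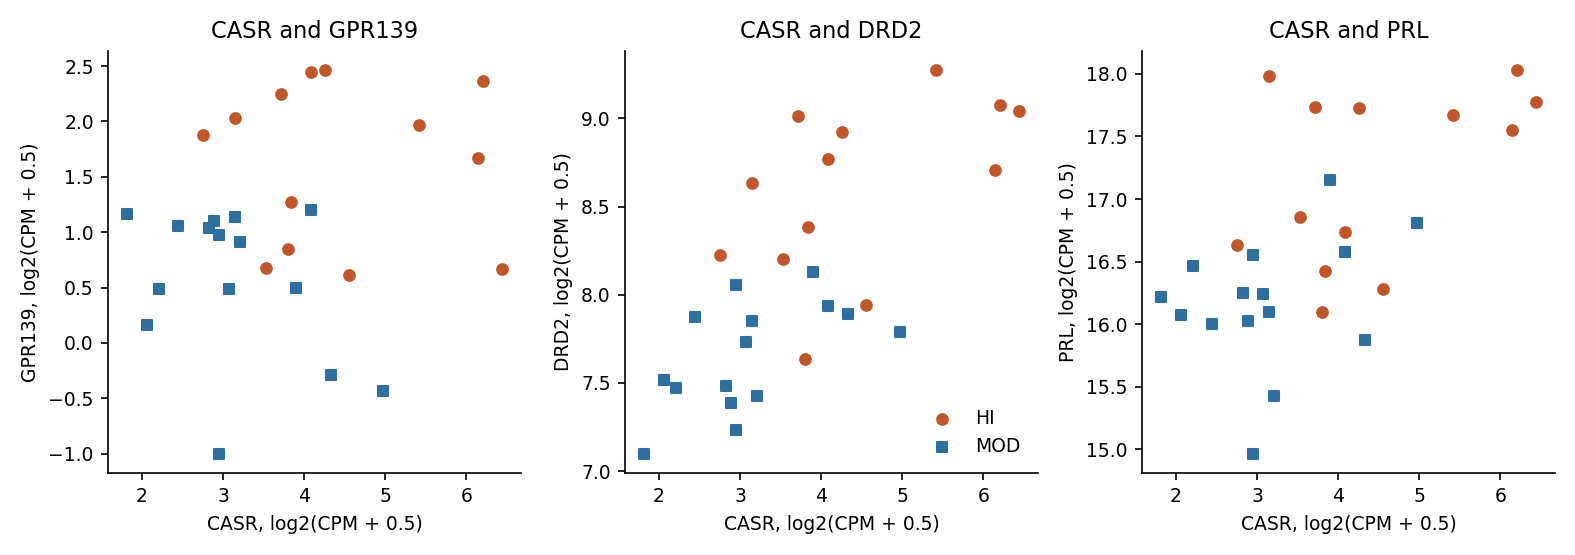
GPR139, DRD2 and PRL against CASR in each calf, all as log2(CPM + 0.5), with HI calves as circles (n = 13) and MOD calves as squares (n = 15). The r of CASR was 0.52 in HI and 0.57 in MOD with DRD2, 0.46 and 0.30 with PRL and -0.06 and -0.35 with GPR139, and none of these 6 values passed the adjustment within 1 diet.

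The r of GPR139 with the lactotroph genes was positive in HI and negative in MOD, and none of these values passed the adjustment. With DRD2, r was 0.61 in HI (permutation p = 0.0274, adjusted p = 0.137), with a Spearman rho of 0.54 (permutation p = 0.0606, adjusted p = 0.202; n = 13), while in MOD r was -0.46 (permutation p = 0.0851, adjusted p = 0.170), with a Spearman rho of -0.29 (permutation p = 0.302, adjusted p = 0.554; n = 15). Without the 2 calves farthest from the median GPR139 level r was 0.78 in HI (permutation p = 0.00506, adjusted p = 0.0506) and -0.29 in MOD (permutation p = 0.340), and neither passed the adjustment. In HI the relation passed the adjustment over 10 relations when HI calf 13 was left out (r 0.82, adjusted p = 0.0135), a calf with 1.09 CPM of GPR139 beside 527 CPM of DRD2. The difference of r between diets was 1.07 (permutation p = 0.0110, adjusted p = 0.0550 over 5 pairs), just outside the threshold. It passed without HI calf 3, 10 or 13 or MOD calf 3, 5, 9, 10, 11 or 12, with differences between 1.03 and 1.28 and adjusted p between 0.0075 and 0.0484. It moved farther from the threshold without others, with an adjusted p of 0.128 without HI calf 1, 0.117 without HI calf 2 and 0.103 without MOD calf 15, where the difference was 0.94.

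With PRL the values had the same signs. In HI r was 0.53 (permutation p = 0.0656, adjusted p = 0.165; rho 0.47, permutation p = 0.105, adjusted p = 0.263; n = 13) and in MOD it was -0.33 (permutation p = 0.230, adjusted p = 0.287; rho -0.16, permutation p = 0.558, adjusted p = 0.620; n = 15). Without the 2 calves farthest from the median GPR139 level r was 0.65 (permutation p = 0.0351, adjusted p = 0.117) and -0.09 (permutation p = 0.767). On either side of the gap in PRL r was 0.44 in the 6 HI calves below (exact permutation p = 0.360) and 0.24 in the 7 above (exact permutation p = 0.625). The difference of r between diets was 0.86 (permutation p = 0.0254, adjusted p = 0.0634), and it passed without HI calf 10 or 13 or MOD calf 5 or 10, with differences between 0.93 and 1.04 and adjusted p between 0.0137 and 0.0484. Without HI calf 1 or 2 or MOD calf 1 the difference was between 0.76 and 0.78 and the unadjusted p was also above 0.05 (permutation p between 0.0512 and 0.0530, adjusted p between 0.128 and 0.132). PRL and DRD2 are themselves related within each diet, with r of 0.86 in HI and 0.59 in MOD, so these are not separate observations. Combined within diets, r of GPR139 was 0.17 with DRD2 (permutation p = 0.398, adjusted p = 0.494) and 0.14 with PRL (permutation p = 0.494, adjusted p = 0.494). These combined values did not pass under any setting tried but moved widely, from 0.0579 with a pseudocount of 0.1 to 0.446 on linear CPM for DRD2 and from 0.0536 to 0.381 for PRL. Without HI calf 1, HI calf 2 and MOD calf 15 they were 0.0810, 0.0713 and 0.301 for DRD2 and 0.0525, 0.0601 and 0.219 for PRL, and for PRL 0.0822 without HI calf 9 and 0.211 without MOD calf 1.

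**Figure D3:**
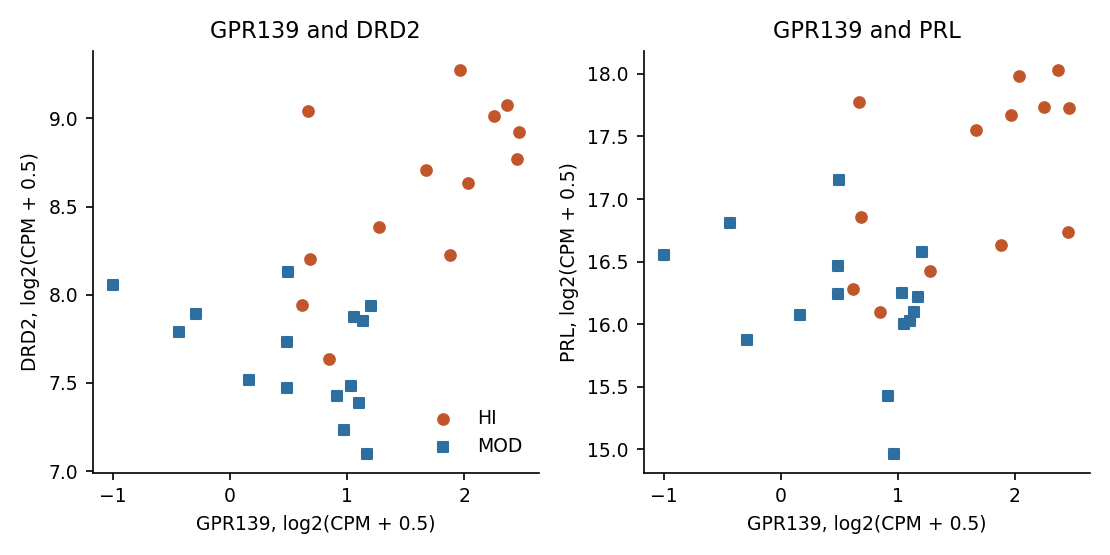
DRD2 (left) and PRL (right) against GPR139 in each calf, all as log2(CPM + 0.5), HI calves as circles (n = 13) and MOD calves as squares (n = 15). The HI points rise from left to right (r 0.61 and 0.53) and the MOD points fall (r -0.46 and -0.33), and the leftmost square is MOD calf 15, with 0 reads of GPR139.

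**Figure D4:**
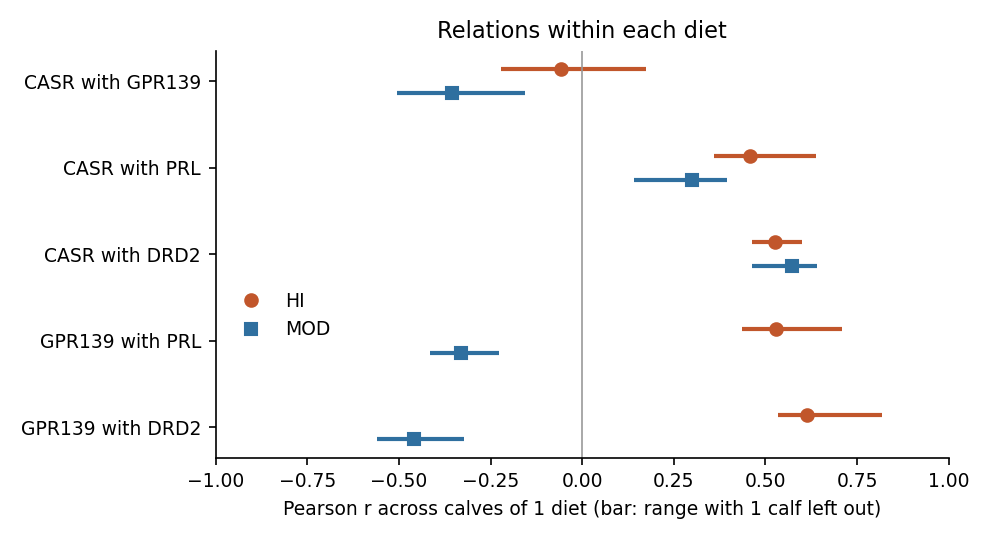
Pearson r across the calves of 1 diet for the 5 pairs, HI as circles (n = 13) and MOD as squares (n = 15). Bars give the lowest and highest r with 1 calf left out and are not confidence intervals. For GPR139 with DRD2 the bars run from 0.535 to 0.818 in HI and from -0.561 to -0.322 in MOD.

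To see which genes followed each receptor, the level of every gene was fitted on the level of the receptor with diet as a covariate (limma, Benjamini-Hochberg adjustment over all genes). With CASR 18 of 14938 genes (0.12%) had an adjusted p below 0.05, of which 14 were positive (0.0937%) and 4 negative (0.0268%). With GPR139 there were 74 (0.495%), 33 positive (0.221%) and 41 negative (0.274%). No gene was called with both receptors, from which nothing is read, since so small a share of all genes was called with each. A gene can be named here only if the study's list gives its symbol, and 158 such genes were tested against each receptor, of which 1 was called with CASR and 4 with GPR139.

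The gene called with CASR was SEC14L5, a gene for a lipid-binding protein of the SEC14 family, with r of -0.69 over 28 calves after removal of the diet means (limma adjusted p = 0.0295), rank 4 of 14938 from the lowest. In HI it ran from 7.55 CPM in HI calf 13, the calf highest in CASR, to 23.2 CPM in HI calf 3, the calf lowest in CASR (r -0.90), and in MOD from 6.40 to 17.0 CPM (r -0.38). Its HI mean was 15.4 ± 4.66 CPM (SD, n = 13) against a MOD mean of 10.2 ± 2.79 CPM (SD, n = 15), while within HI it was lower in calves with more CASR. It was not called without HI calf 3, 9, 12 or 13 or MOD calf 1 or 9, with adjusted p between 0.0502 and 0.130, while its slope on the log2 scale stayed between -0.28 and -0.23 beside -0.27 with all calves.

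The next lowest named genes were ENO3, the muscle form of the glycolytic enzyme enolase (r -0.64), PRRT4 (r -0.57), the calcium-permeable channel gene TRPC6 (r -0.53) and the Ras-related GTPase gene DIRAS2 (r -0.44). The highest were GREB1L, a retinoic acid receptor coactivator (r 0.60), PLCH2, a phospholipase C that releases inositol trisphosphate (r 0.59), CHL1, a neural cell adhesion molecule (r 0.58), the transcription factor gene ETV1 (r 0.56) and DRD2 (r 0.54). None of these 9 genes passed in the fit over all genes, with limma adjusted p between 0.0720 and 0.493. DRD2 had an adjusted p of 0.250 there, at rank 97 of 14938 from the highest, so its relation with CASR passed only among the 5 pairs chosen for comparison. With PRL as a further covariate the adjusted p of DRD2 was 0.9999. Its slope on CASR stayed positive, between 0.110 and 0.226 over the alternative fits, that with PRL included, beside 0.208 in the main fit. PLCH2 ranged from 0.386 to 8.41 CPM in HI, with its highest value in HI calf 9. It was at 7.46 CPM in HI calf 8, which had 12.6 CPM of CASR. GREB1L ranged from 20.2 to 75.4 CPM, with its lowest value in the calf lowest in CASR and its highest in the calf highest in CASR.

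With GPR139 the 4 named genes called were TIMD4, a phosphatidylserine receptor of macrophages, which was positive (r 0.70, limma adjusted p = 0.0142), and 3 that were negative, namely the cAMP-responsive transcription factor gene CREM (r -0.69, adjusted p = 0.0142), the small MAF transcription factor gene MAFF (r -0.66, adjusted p = 0.0261) and CDC42EP4, an effector of the GTPase CDC42 (r -0.64, adjusted p = 0.0388). With a pseudocount of 2 none of the 3 negative genes was called (adjusted p between 0.0696 and 0.104), and the number of genes called was 31 in place of 74. TIMD4 had r of 0.70 in HI and 0.69 in MOD. For the 3 negative genes r was between -0.82 and -0.79 in MOD and between -0.57 and -0.38 in HI.

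The 3 negative genes were highest in the same 2 MOD libraries, with others between these and the rest. CREM had a MOD median of 25.9 CPM and was at 66.7 CPM in MOD calf 1 and 63.8 CPM in MOD calf 15, which had the lowest GPR139 of all calves, at 4 and 0 reads. MOD calves 14, 4 and 10 followed, at 50.0, 41.1 and 40.3 CPM of CREM beside 0.913, 0.904 and 0.317 CPM of GPR139. MAFF had a MOD median of 7.09 CPM and was at 27.8 and 27.4 CPM in MOD calves 1 and 15 and at 16.1, 19.6 and 12.7 CPM in MOD calves 14, 4 and 10. CDC42EP4 was at 86.4 and 85.3 CPM and at 60.3, 59.9 and 58.5 CPM in these calves, with a MOD median of 38.0 CPM. MOD calves 9 and 3 were also low in GPR139, at 0.620 and 0.901 CPM, without being high in the 3 genes. They had 19.8 and 26.3 CPM of CREM, 6.94 and 7.09 CPM of MAFF and 38.0 and 39.1 CPM of CDC42EP4. ALDH1A3, a retinaldehyde dehydrogenase that was not called (r -0.58, limma adjusted p = 0.0640), was at 4.61 CPM in MOD calf 1 and 11.4 CPM in MOD calf 15, and at 3.74 CPM in MOD calf 10 and 3.67 CPM in MOD calf 4, with a MOD median of 1.18 CPM. MOD calves 1 and 15 were of ordinary depth, at 16599429 and 14600296 reads on genes. Without MOD calf 15 the number of genes called with GPR139 fell from 74 to 8, and without MOD calf 1 it fell to 18. None of TIMD4, CREM, MAFF and CDC42EP4 was called when either calf was left out (adjusted p between 0.0531 and 0.148). The slopes on the log2 scale changed less. Without MOD calf 1 and without MOD calf 15 they were 0.62 and 0.66 for TIMD4, beside 0.64 with all calves, -0.46 and -0.47 for CREM, beside -0.52, -0.62 in each case for MAFF, beside -0.70, and -0.34 in each case for CDC42EP4, beside -0.39. CDC42EP4 was also not called without HI calf 6 or 7 or MOD calf 5, 7, 8, 10 or 11 (adjusted p between 0.0507 and 0.0552).

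The number of genes called moved with other calves too. With GPR139 it was 118, 39, 45, 202, 112 and 42 without HI calves 1, 6, 7, 8, 11 and 13, and 47, 41, 45, 48, 48 and 242 without MOD calves 5, 7, 8, 11, 12 and 14. With CASR it was 7, 4 and 10 without HI calves 3, 9 and 13, and 28 without MOD calf 1, 11 or 15.

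The other named genes nearest to GPR139 were DIO3, the deiodinase that inactivates thyroid hormone (r 0.58), TTC9B (r 0.57), the ion channel subunit gene ASIC4 (r 0.57), WFIKKN1, a binding protein of growth factors of the TGF-beta family (r 0.56), and the smooth muscle actin gene ACTA2 (r -0.56). Their limma adjusted p was between 0.0654 and 0.0936. The relation to the receptor level differed between diets by an interaction term in 3 genes for GPR139 and in 0 genes for CASR (limma adjusted p below 0.05), beside 1007 and 800 genes with an unadjusted p below 0.05. One of the 3 genes has a symbol, ABHD6, a hydrolase of the endocannabinoid 2-arachidonoylglycerol, which was chosen after its values were seen. Its r with GPR139 was 0.27 in HI and -0.90 in MOD, and its slope was higher by 1.07 in HI (limma adjusted p = 0.0181). In MOD it was highest in calves 15 and 1, at 102 and 84.3 CPM, with a median of 31.0 CPM, and r in MOD was -0.83 and -0.88 without each. The difference of its slopes was between 0.97 and 1.18 with any 1 calf left out, and it was not called without HI calf 1 or 5 or MOD calf 1 or 15 (adjusted p between 0.0506 and 0.193). Without each of these 4 calves 0 genes were called (limma, 697 to 1071 genes at an unadjusted p below 0.05), and 11 were called without HI calf 13. The interaction of DRD2 with GPR139 had an unadjusted p of 0.00153 and an adjusted p of 0.342 over all genes.

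**Figure D5:**
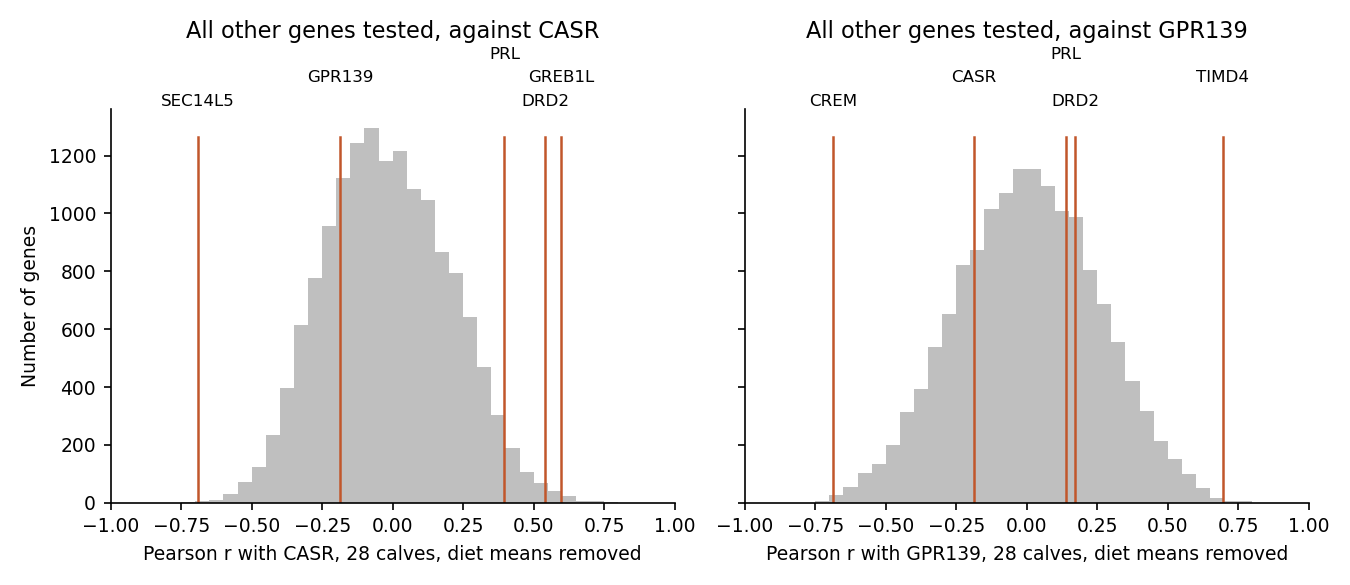
Number of genes by Pearson r with CASR (left) and GPR139 (right) over 28 calves with diet means removed, for the 14938 other genes tested, in bins of 0.05. Lines mark named genes, with SEC14L5 at -0.69 and GREB1L at 0.60 for CASR, and CREM at -0.69 and TIMD4 at 0.70 for GPR139. The other receptor lies at -0.19 in both panels, well inside the bulk of the genes.

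Other receptor genes were set beside the members. Of 13 G protein-coupled receptor genes listed, 8 carry an identifier, all through the study's list of genes that differ, so their direction restates that choice and is not independent evidence. Beside the members, the log2 difference between diets (HI minus MOD) was 0.94 for DRD2, -1.25 for GRPR, the receptor of gastrin-releasing peptide, -0.98 for the glutamate receptor GRM7 and -0.60 for the adhesion receptor ADGRG2. It was -0.57 for GHRHR, through which the hypothalamus drives growth hormone release, and 0.63 for the chemokine receptor CX3CR1. Within diets the r of the other 7 receptors with CASR ran from -0.28 for GHRHR to 0.54 for DRD2, with a median of -0.06 beside -0.02 for all genes. With GPR139 it ran from -0.34 for GRM7 to 0.32 for CX3CR1, with a median of 0.10 beside 0.00449 for all genes. In the fit over all genes 0 of the 7 passed with either receptor, beside 0.12% of all genes with CASR and 0.495% with GPR139, so nothing is read from the count.

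Of 17 genes listed for calcium, Gq and protein kinase C signalling 13 carry an identifier, again through the study's list, so that their diet calls restate the choice and nothing is read from the counts, here or against the 0.837% of all genes. By limma 4 were called higher in HI, GNA15 (a G protein subunit of the Gq family), PRKCB (protein kinase C beta), the calcium channel gene CACNA1I and the calcium pump gene ATP2B2, and 4 were called lower, RGS1, RASD1, RRAD and KCNMB2, while 5 were not called. Within diets 0 of the 13 passed with CASR or GPR139, beside 0.12% and 0.495% of all genes, which says nothing particular of the list. Their r with CASR had a median of -0.10 and ran from -0.53 for TRPC6 to 0.59 for PLCH2, and with GPR139 the median was 0.10 and the range ran from -0.52 for RRAD, an inhibitor of calcium channels, to 0.47 for ATP2B2.

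Markers of other cells were compared in the same way. The shares of all genes called, 0.12% with CASR and 0.495% with GPR139, are the background for these counts. With CASR 0 of the markers passed. Of the pituitary cell types, r with CASR was 0.25 for CSHL1, of the growth hormone family, and -0.28 for GHRHR among somatotroph genes, and -0.24 for FSHB of gonadotrophs. It was -0.17 and 0.26 for the smooth muscle genes ACTA2 and LMOD1, between 0.05 and 0.35 for 4 genes of dividing cells, and between -0.25 and 0.05 for 3 immune genes. With GPR139 r was 0.12 for CSHL1, 0.10 for GHRHR and -0.19 for FSHB, and between -0.02 and 0.53 for the genes of dividing cells. It was -0.56 for ACTA2 and -0.07 for LMOD1. Of the 3 immune genes TIMD4 was called at an r of 0.70, beside 0.32 for CX3CR1 and 0.17 for CD79B. TIMD4 averaged 6.12 CPM in HI and 3.28 CPM in MOD, CX3CR1 55.7 and 36.3 CPM and CD79B 0.888 and 1.67 CPM, and the part of immune cells in the relation was not tested. The 5 immediate early genes EGR1, FOSB, ATF3, JUNB and ARC, which respond quickly to stimulation or handling, had r with GPR139 from -0.48 for FOSB to 0.42 for JUNB and with CASR from 0.01 to 0.26, and none was called.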

How the data were processed

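The authors removed adapters with cutadapt, used STAR to align paired reads of stranded mRNA libraries to the ARS-UCD1.2 genome, and took gene counts from it. The deposited values, described as counts, are a normalized signal, the CPM of each gene on library sizes adjusted by TMM, with 1 column per calf. The worth of 1 read in each column turned the values back into whole reads, and 100% of the positive values came out whole within 0.01. Diet was taken from the labels, with 13 calves in HI and 15 in MOD, although the study's text gives equal numbers. Tests of differential expression used log2(CPM + 0.5) and limma 3.58.1 (R 4.3.3) with trend and robust variance moderation, on the 14939 genes that passed filterByExpr of edgeR 4.0.16. Correlations used 2-sided permutation tests with 100000 resamples, within diets where diets were combined. For differences between diets the diet labels were permuted over deviations. These were from diet means and scaled to unit SD in each diet for r, and from diet medians for the spread. DESeq2 1.42.0 and the quasi-likelihood test of edgeR were run on recovered reads as alternatives. The members, lists and tests were chosen with earlier results of these data known. The named genes are the members, PRL, DRD2, list members with an identifier, and the 5 highest and 5 lowest r with each receptor among genes with a symbol. Genes singled out beside these are named by identifier, and ABHD6 by its symbol. Fold changes and p-values in the study's gene list were not used, and only identifiers and symbols were taken from it. The interaction fit, its repeats with 1 calf left out and the alternatives for the differences of r were chosen after seeing the data. The fits were tested on simulated data. Intervals and limits cover counting error only.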

Additional observations from a re-analysis of the deposited data

Results flagged for a closer look

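For GPR139 with DRD2 the r in HI was higher by 1.07 than in MOD, a difference with an unadjusted permutation p of 0.0110 and an adjusted p of 0.0550 over 5 pairs. For GPR139 with PRL the r in HI was higher by 0.858 (permutation p = 0.0254, adjusted p = 0.0634). The values are given here because the unadjusted p of the difference was below 0.05. Neither passed the adjustment over the 5 pairs, so a difference between the diets is not shown.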

How the results depend on the processing

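The log2 fold change of CASR between diets was between 1.19 and 1.60 over the alternatives to scaling, pseudocount and fit, and that of GPR139 between 0.62 and 1.39. CASR with DRD2 within diets lost its threshold on linear CPM (r 0.53, adjusted p = 0.126) and kept it with pseudocounts of 0.1 and 2, RLE size factors and library totals without PRL and CSHL1 (adjusted p between 0.0294 and 0.0390). With each calf left out its r was between 0.50 and 0.59. The sign of the following values, none of them past the threshold, turned. CASR with GPR139 was 0.012 in HI and 0.0761 in MOD without the 2 farthest calves, and with 1 calf left out between -0.22 and 0.17 in HI, while in MOD it stayed negative, between -0.506 and -0.157. CASR with PRL in HI was -0.39 and -0.21 on either side of the gap in PRL, a split on PRL itself that narrows its range and so is no test of the relation in HI. The difference of r for CASR with DRD2 was 0.0847 on linear CPM and between -0.117 and 0.0603 with 1 calf left out, and the spread of GPR139 in HI minus MOD was -0.11 with a pseudocount of 0.1. With 1 calf left out GPR139 with DRD2 in HI had r between 0.535 and 0.818, CASR with PRL within diets between 0.33 and 0.50, the differences of r of GPR139 between 0.76 and 1.04 for PRL and 0.94 and 1.28 for DRD2, and CASR with GPR139 given DRD2 between -0.50 and -0.25. In the fits of PRL and DRD2 on GPR139 at equal diet the slopes turned to -0.26 and -0.21 in MOD calves alone.

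The number of genes called with CASR (18) was 5 in HI calves alone, 0 in MOD calves alone (983 at an unadjusted p below 0.05), 3 with PRL as a further covariate, 33 with the quasi-likelihood test of edgeR and 71 with DESeq2, and between 4 and 28 with 1 calf left out. With GPR139 (74) it was 31 with a pseudocount of 2, 35 without the filter, 0 in HI calves alone (1326 at an unadjusted p below 0.05), 186 with PRL as a further covariate, 119 with edgeR and 374 with DESeq2, and between 8 and 242 with 1 calf left out. Fewer calves entered the fits of 1 diet, and the cause of the other changes was not tested. DESeq2 and edgeR had 18 and 18 of the 18 genes called with CASR by limma, and 74 and 68 of the 74 called with GPR139. SEC14L5 was not called in MOD calves alone or with PRL as a covariate, TIMD4 in either diet alone, and CREM, MAFF and CDC42EP4 in HI calves alone or with a pseudocount of 2, nor CDC42EP4 without the filter. Low read numbers limit what can be seen of GPR139. No paired analysis was possible because the labels give each calf its own number and no block.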

Other observations

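The gene with the highest r to CASR within diets was ENSBTAG00000007958, averaging 28.4 ± 24.4 CPM for the HI calves (SD, n = 13) against 14.6 ± 11.2 CPM for the MOD calves (SD, n = 15), with r of 0.81 over 28 calves (0.88 in HI and 0.71 in MOD, limma adjusted p = 0.000586). The lowest was ENSBTAG00000008939, with r of -0.72 (limma adjusted p = 0.0949), averaging 27.7 ± 2.82 CPM against 28.1 ± 2.23 CPM (SD, same calves). For GPR139 the highest was ENSBTAG00000048501, with r of 0.81 (0.85 in HI and 0.77 in MOD, limma adjusted p = 0.000631), at 3.39 ± 2.31 CPM (SD, n = 13) and 1.87 ± 1.13 CPM (SD, n = 15). The lowest was ENSBTAG00000012082, with r of -0.77 (-0.69 in HI and -0.84 in MOD, limma adjusted p = 0.00751), at 9.50 ± 2.78 CPM (SD, n = 13) and 10.1 ± 4.01 CPM (SD, n = 15). None of these 4 genes differed between the diets past the threshold (limma adjusted p between 0.265 and 0.917). The sources used here do not pair these identifiers with a symbol.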
